A study of Mus musculus with 4 samples.

Results

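The Kelch-like and ASB genes encode adaptors of cullin-RING ubiquitin ligases, the enzymes that mark chosen proteins with ubiquitin. They were examined in C2C12 cells, a mouse myoblast line that fuses into myotubes when serum is withdrawn. Members were the probes whose name in the scanner files was Klhl, Kbtbd or Asb followed by a number. This gave 98 probes of 55 genes, out of 41174 probes and 27597 names on the array. Of the 55 genes, 37 were Kelch-like or Kbtbd genes (65 probes) and 18 were ASB genes (33 probes). The array lists Klhl40 and Klhl41 as Kbtbd5 and Kbtbd10, and current names are used below.

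Cells given GDF8 at 20 nM every 24 h were compared with untreated cells. GDF8 is myostatin, here the recombinant mouse protein, a ligand of the TGF-beta family that limits muscle growth. Both sets of cells had been differentiated for 6 days in DMEM with HS, given as 2% in the growth protocol and 10% in the source labels. Each of 4 two-colour arrays held RNA of 1 treated and 1 untreated culture, labelled as biological replicates 1 to 4. GDF8-treated RNA was in Cy3 on replicates 1 and 4 and in Cy5 on replicates 2 and 3. C2C12 is 1 cell line, and nothing in the labels says how the replicate cultures were kept apart, so the p-values measure the spread between these arrays, which may be technical in part.

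A BTB-kelch protein binds cullin 3 through its BTB domain and its substrate through its kelch repeats. An ASB protein holds its substrate with ankyrin repeats and binds elongins B and C and cullin 5 through its SOCS box. In skeletal muscle several members of both families are abundant, and in human patients loss of KLHL40 or KLHL41 causes nemaline myopathy. ASB2 is known to direct filamins to degradation in differentiating muscle cells.

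Upstream sequences are shown for 5 member genes, as background to muscle transcription factor motifs near their start sites. Asb14 had the deepest fall among the members, Asb16 and Klhl31 also fell, and Klhl40 and Klhl41 are the nemaline myopathy genes. The other genes that fell, Asb2, Asb11, Asb15 and Klhl13, are not shown. They hold no MEF2 match in the 250 bases searched, so the 5 sequences are not typical of the fallen genes. The sequences are the 150 bases before the RefSeq gene start on assembly GRCm38.p6, 5′ to 3′ on the gene's strand, which is the plus strand in all 5. They lie at chr14:26894464-26894613 (Asb14), chr11:102268601-102268750 (Asb16), chr9:77636582-77636731 (Klhl31), chr9:121777457-121777606 (Klhl40) and chr2:69669970-69670119 (Klhl41). Capitals mark E-boxes (CANNTG, the motif bound by MyoD and myogenin) and matches to the MEF2 motif.
Asb14: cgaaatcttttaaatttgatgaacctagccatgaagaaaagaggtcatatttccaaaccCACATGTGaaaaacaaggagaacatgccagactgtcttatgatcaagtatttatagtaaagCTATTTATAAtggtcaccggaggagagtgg
Asb16: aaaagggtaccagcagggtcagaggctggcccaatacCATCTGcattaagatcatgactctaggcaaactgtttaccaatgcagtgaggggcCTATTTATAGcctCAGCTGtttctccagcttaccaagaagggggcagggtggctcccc
Klhl31: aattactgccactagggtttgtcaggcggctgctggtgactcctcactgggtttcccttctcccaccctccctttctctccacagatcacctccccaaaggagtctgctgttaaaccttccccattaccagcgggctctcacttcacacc
Klhl40: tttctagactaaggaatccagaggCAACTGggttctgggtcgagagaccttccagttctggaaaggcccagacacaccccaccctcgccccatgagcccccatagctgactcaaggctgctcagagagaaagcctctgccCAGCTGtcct
Klhl41: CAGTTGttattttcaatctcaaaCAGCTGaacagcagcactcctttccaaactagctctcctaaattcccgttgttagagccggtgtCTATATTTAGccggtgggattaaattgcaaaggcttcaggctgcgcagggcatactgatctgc
Asb14, Asb16 and Klhl41 each hold a MEF2 match and at least 1 E-box in this stretch. The MEF2 match lies 30 bases before the start in Asb14, 58 in Asb16 and 63 in Klhl41. The capital run of 8 bases in Asb14 is a pair of overlapping E-boxes. Klhl40 holds 2 E-boxes, the nearer one 10 bases before the start, and Klhl31 holds none of the motifs searched.

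Over 250 bases upstream and on both strands, 49 member genes had a RefSeq promoter. An E-box was present in 32 of them (65.3%), against 69.3% of all 27025 genes in the promoter table. The E-box form CAGCTG was present in 10 (20.4%), against 14.7% of all genes. The MEF2 motif was present in 6 (12.2%), against 3.42% of all genes, and these were Asb5, Asb12, Asb14, Asb16, Asb18 and Klhl41. Of the 7 genes that fell after GDF8 (below), 2 held it, Asb14 and Asb16. Of the 33 genes with a promoter that were tested and not called, 2 held it, Asb5 and Klhl41. These counts are small and carry no test. The MCAT motif CATTCC, bound by TEAD factors, was found in 5 (10.2%, against 14.4%). The CArG box, bound by serum response factor, was found in Asb2 and Asb5 (4.08%, against 1.62%). Only the canonical letters were searched, a CAGCTG counts as an E-box too, and a match is a description and not a binding site.

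A probe was tested if it was well above background on all 4 arrays in GDF8-treated or in untreated cells, and 68 member probes of 45 genes met this. Values are log2 ratios of GDF8-treated over untreated cells, fitted across all 26579 probes tested in limma with a term for dye. The ± gives limma's moderated standard error from that fit. It draws in part on the spread of other probes and leaves out spread that follows the dye. It can therefore be smaller than the spread of the 4 ratios of a probe. Adjusted p-values are limma's with Benjamini-Hochberg adjustment over those 26579 probes, and a probe under 0.05 is said to have risen or fallen. In bulk RNA, fewer cells of a type and less RNA per cell cannot be told apart.

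After GDF8, 8 member probes of 7 genes fell and 0 rose. The 7 genes were Asb2, Asb11, Asb14, Asb15, Asb16, Klhl13 and Klhl31. The share of tested member probes that fell was 11.8%, against 1.95% of all probes tested. It was 22.7% of the 22 ASB probes (5 of 13 genes) and 6.52% of the 46 Kelch-like and Kbtbd probes (2 of 32 genes). Of the 5 fallen ASB probes, those of Asb11 and Asb15 entered the test through untreated cells alone, where they were higher. With a level well above background required on every array of both groups, 6 of 62 member probes fell (9.68%, against 1.81% of all probes), 3 of 19 ASB probes (15.8%) and 3 of 43 Kelch-like and Kbtbd probes (6.98%). These shares describe the probes that passed each filter. No member rose in the limma fit, where 0.771% of all probes did; at an unadjusted p under 0.05, 1 member probe was higher and 10 were lower. Past the study's own 1.6-fold threshold, 7 member probes fell, against 1.32% of all probes. The number rests on single arrays: without replicate 2 only the Asb14 probe fell, without replicate 4 3 probes did (Asb2, Asb14 and Klhl13), without replicate 1 6 did and without replicate 3 9 did.

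**Figure D1:**
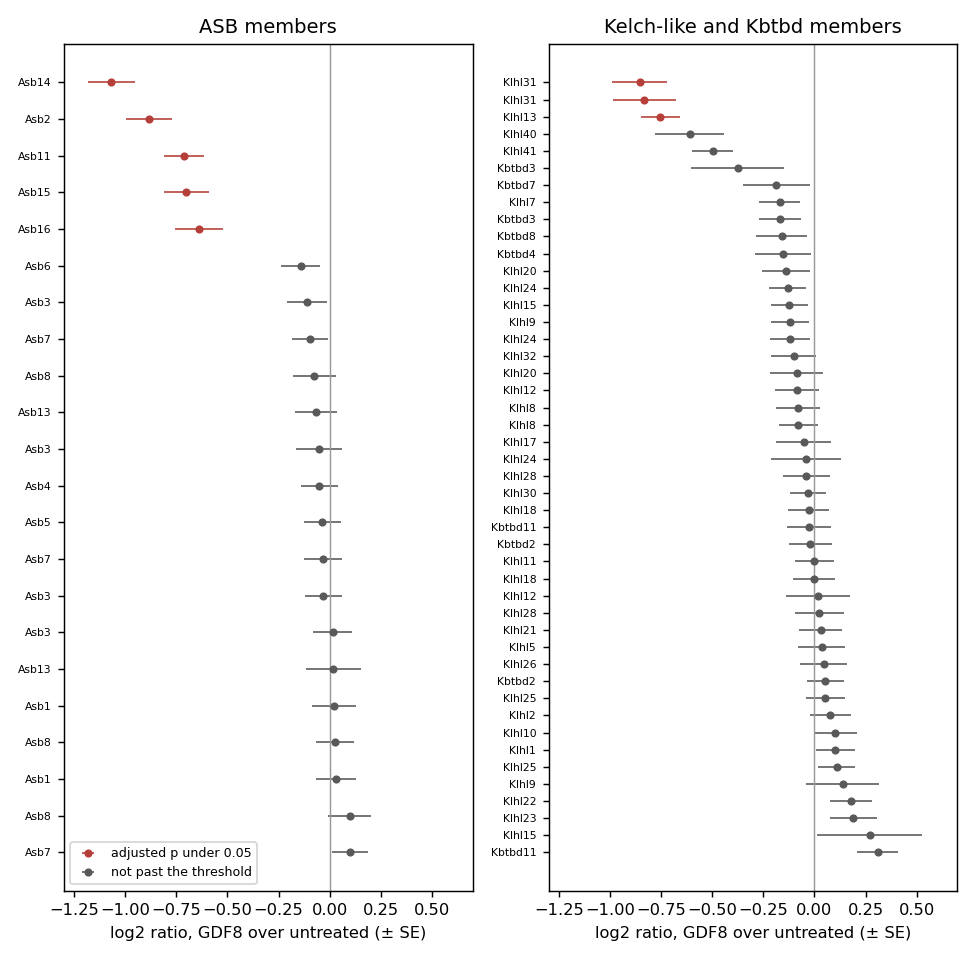
Log2 ratio of GDF8-treated over untreated cells (x axis) for the 22 ASB probes and 46 Kelch-like and Kbtbd probes tested. Each row is 1 probe with its gene name. Bars are limma's moderated standard errors, which leave out spread that follows the dye, and red marks an adjusted p under 0.05. The 8 red probes lie at the low end, and 55 of the 68 lie within 0.2 of 0; the points of Asb5 and Klhl30 come from saturated channels and show no measured ratio.

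The median over the 68 tested member probes was -0.05, and over all probes it was 0.01. By array it was -0.03, 0.00, -0.01 and -0.19 for replicates 1 to 4. Most members thus lay near 0, and the falls lay in a minority of genes. Of the tested member probes, 11 were lower on all 4 arrays (16.2%, against 7.91% of all probes) and 0 were higher on all 4 (against 7.69%).

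Among members known for expression in muscle, a list chosen with earlier results of these data known, 14 of the 16 listed genes had a member probe. Of these 21 probes 14 were tested (11 genes), and 6 of them, from 5 genes, fell (42.9%, against 1.95% of all probes tested). Of the fallen probes, those of Asb11 and Asb15 entered the test through untreated cells alone, where they were higher. Both are in the count and in the medians that follow. The median of the 14 tested probes was -0.55, and 4 of them were saturated in at least 1 channel (Asb5, Klhl30, Klhl41 and 1 of Asb8). Over the 10 never saturated it was -0.71, a value added after seeing the data. Among the 54 tested probes of the other members 2 fell (3.70%), those of Klhl13 and Asb16, and the median was -0.03. No member probe on the muscle list rose.

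Asb14, an ASB adaptor whose substrates are little studied, had the deepest fall. Its normalised log2 intensity was 8.35, 8.72, 8.80 and 8.36 in GDF8-treated cells of replicates 1 to 4, against 9.52, 9.86, 9.41 and 9.72 in untreated cells. The groups did not overlap. Here and below, called probes were picked by their call on these same arrays, so a lack of overlap is a description and not further support. The share of all probes without overlap is not given. The ratio was -1.17, -1.14, -0.60 and -1.35, with a mean of -1.07 ± 0.12, or 2.10-fold lower (adjusted p = 0.010). It is the single member that fell in each of the 4 fits that left out an array, with adjusted p between 0.0048 and 0.039.

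Asb2, the filamin-directed adaptor, gave 12.65, 12.75, 12.93 and 12.81 in GDF8-treated cells and 13.62, 13.73, 13.42 and 13.90 in untreated cells. Again no treated value reached an untreated one. Its ratios were -0.97, -0.98, -0.49 and -1.10, with a mean of -0.88 ± 0.11, or 1.84-fold lower (adjusted p = 0.013). Without replicate 2 it did not pass (adjusted p = 0.050). A second Asb2 probe was not well above background on any array and gave no test.

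Asb11, known in zebrafish for a role in muscle regeneration and Notch signalling, gave 7.99, 8.04, 8.21 and 8.05 in GDF8-treated cells and 8.68, 8.90, 8.76 and 8.80 in untreated cells. The groups did not overlap, but the probe was well above background on 3 of 4 arrays in treated cells and on all 4 in untreated cells. Its ratios of -0.69, -0.86, -0.55 and -0.75 had a mean of -0.71 ± 0.10, or 1.64-fold lower (adjusted p = 0.016). It did not pass without replicate 2 or 4, with a highest adjusted p of 0.089.

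Asb15, reported to affect muscle growth in chicken, gave 7.94, 8.46, 8.50 and 8.26 in GDF8-treated cells and 8.59, 9.24, 8.90 and 9.23 in untreated cells. Here too the groups did not overlap, and 3 of 4 treated levels were well above background. The ratios were -0.65, -0.78, -0.40 and -0.97, with a mean of -0.70 ± 0.11, or 1.63-fold lower (adjusted p = 0.023), and it did not pass without replicate 2 or 4. The remaining 2 Asb15 probes were not tested, and gave -0.47, -0.22, -0.38 and -0.20 on one and 0.48, 0.02, -0.07 and 0.17 on the other. The first of them was well above background on 1 array in each group and the second on none. Asb11 and Asb15 entered the test through the untreated channel alone, as did 5 tested member probes in all.

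Asb16 gave 8.09, 8.25, 8.54 and 8.53 in GDF8-treated cells and 8.97, 8.999, 8.74 and 9.25 in untreated cells. No treated value reached the lowest untreated one, although replicate 3 came near with a ratio of -0.20. The other ratios were -0.89, -0.75 and -0.72, and the mean was -0.64 ± 0.12, or 1.56-fold lower (adjusted p = 0.040), the smallest fall among the called members. It did not pass without replicate 1, 2 or 4. The second Asb16 probe was well above background on 2 arrays in each group and was not tested.

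**Figure D2:**
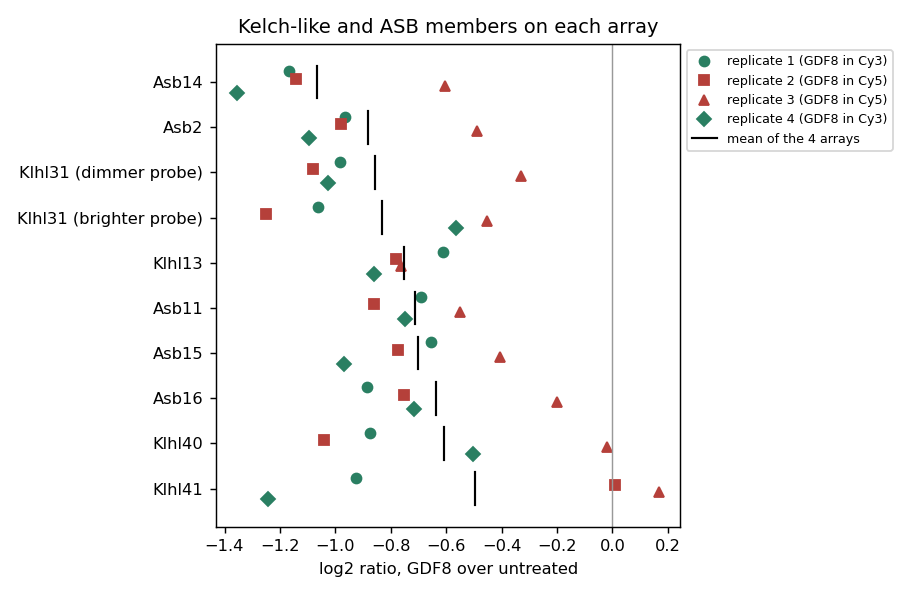
Log2 ratio of GDF8-treated over untreated cells (x axis) on each array for the 8 member probes that fell and for Klhl40 and Klhl41, 1 row a probe; colour gives the dye of the GDF8-treated RNA, marker shape the replicate and the black bar the mean. All 8 fallen probes lie below 0 on every array, while Klhl41 is at -0.92 and -1.24 with GDF8 in Cy3 and at 0.01 and 0.17 with GDF8 in Cy5.

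Asb5 and Klhl30, both muscle-expressed, were saturated on the scanner in the untreated channel of all 4 arrays and in the GDF8 channel of 3. No ratio is given for them. The 3 Asb8 probes stayed near 0, at -0.07, 0.03 and 0.10, the first saturated in 2 GDF8 and 1 untreated channels. By array they gave -0.16, 0.31, 0.14 and -0.59 on the first, 0.12, 0.00, 0.09 and -0.09 on the second, and 0.22, 0.00, 0.29 and -0.12 on the third. The tested Asb4 probe gave -0.05, -0.08, 0.06 and -0.12, with a mean of -0.05 ± 0.09, and the other, never well above background, gave 0.19, -0.33, -0.21 and 0.44.

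The remaining muscle-linked ASB genes were too dim to test. The Asb10 probe gave -0.51, -0.36, 0.07 and -0.88, and was well above background on 2 arrays in GDF8-treated and 3 in untreated cells. Asb12 gave -0.62, -0.65, -0.04 and -0.30, and was well above background on 1 untreated array alone. Asb18 gave -0.05, 0.18, 0.07 and -0.11, with 1 array in each group well above background. Asb9, which targets creatine kinase B, and Asb17, a testis gene, were also below the detection limit set for testing.

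The other ASB genes were measured and did not pass. Asb1, Asb3, Asb6, Asb7 and Asb13 had 12 tested probes between -0.14 (Asb6) and 0.10 (an Asb7 probe). Asb3 has been linked to turnover of TNF receptor 2 and Asb6 to the insulin receptor adaptor APS. The 4 Asb3 probes ranged from -0.11 to 0.01.

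**Figure D3:**
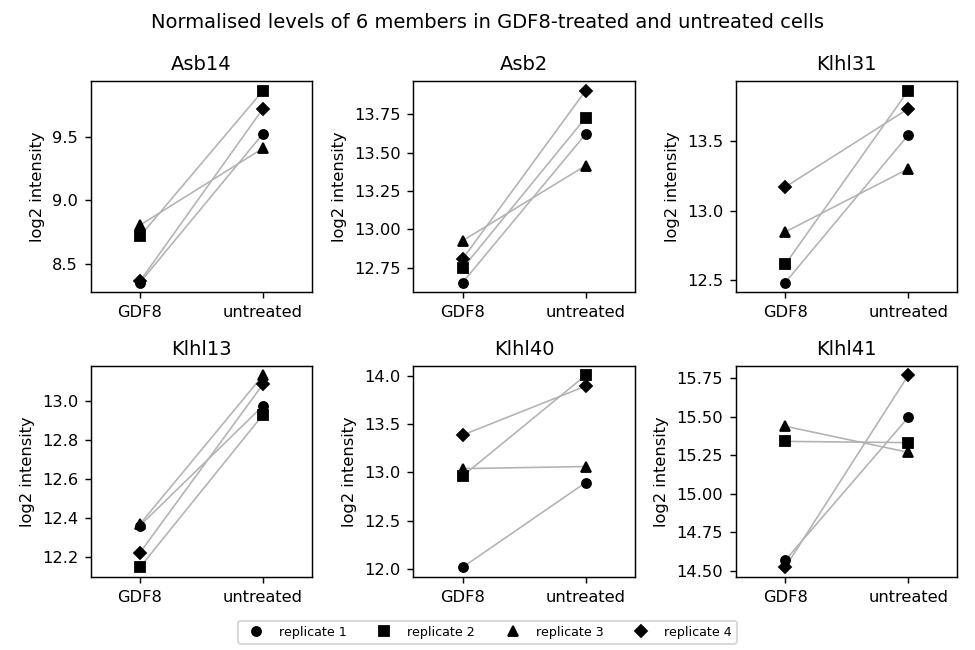
Normalised log2 intensity (y axis, a scale of its own in each panel) in GDF8-treated and untreated cells for 6 members, with lines joining the 2 channels of an array and marker shape giving the replicate. The groups do not overlap for Asb14, Asb2, Klhl31 (brighter probe) and Klhl13, which were picked by their call on these same arrays. They overlap for Klhl40 and Klhl41.

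Among Kelch-like genes, Klhl31, a sarcomere-associated protein whose loss causes myopathy in mice, fell at both of its probes. The brighter probe gave 12.48, 12.61, 12.85 and 13.17 in GDF8-treated cells and 13.55, 13.86, 13.30 and 13.73 in untreated cells. The dimmer one gave 10.16, 9.89, 10.50 and 10.14 in GDF8-treated cells and 11.15, 10.97, 10.83 and 11.16 in untreated cells. On neither probe did the groups overlap, and replicate 3 gave the smallest difference on both. The ratios were -1.06, -1.25, -0.45 and -0.56 on the brighter probe (mean -0.83 ± 0.15, 1.78-fold lower, adjusted p = 0.041). They were -0.98, -1.08, -0.33 and -1.03 on the dimmer probe (mean -0.86 ± 0.13, 1.81-fold lower, adjusted p = 0.023). The 2 means differed by less than either standard error, and neither probe passed without replicate 1, 2 or 4.

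Klhl13, which works with Klhl9 and cullin 3 on the mitotic kinase Aurora B in human cells, fell at the 1 probe of 4 that was bright enough to test. It gave 12.36, 12.15, 12.37 and 12.22 in GDF8-treated cells and 12.97, 12.93, 13.13 and 13.09 in untreated cells. The ratios of -0.61, -0.78, -0.76 and -0.86 were the closest together of the called members, with a mean of -0.75 ± 0.09, or 1.69-fold lower (adjusted p = 0.013). Without replicate 2 the adjusted p was 0.057. Of the 3 untested Klhl13 probes, 2 were not well above background on any array.

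Klhl40, which stabilises nebulin and leiomodin 3 in the sarcomere's thin filament, did not pass. It gave 12.02, 12.96, 13.04 and 13.39 in GDF8-treated cells and 12.90, 14.00, 13.06 and 13.89 in untreated cells, and the groups overlapped. Its ratios were -0.87, -1.04, -0.02 and -0.50, with a mean of -0.61 ± 0.17 (adjusted p = 0.16). Single arrays moved it both ways: without replicate 3 the mean was -0.86 (adjusted p = 0.021), and without replicate 2 it was -0.36 (adjusted p = 0.51).

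Klhl41, a relative that also acts on nebulin, gave 14.57, 15.34, 15.44 and 14.52 in GDF8-treated cells and 15.49, 15.33, 15.27 and 15.77 in untreated cells. The ratio followed the dye orientation: it averaged -1.08 on replicates 1 and 4, with GDF8 in Cy3, and 0.09 on replicates 2 and 3, with GDF8 in Cy5. Over the 4 arrays the mean was -0.50 ± 0.10 (adjusted p = 0.055), and 2 untreated channels were saturated. The standard deviation of the 4 ratios was 0.69, as the standard error leaves out the part that follows the dye. When arrays were centred on their median in place of loess, both genes passed, Klhl40 at -0.60 (adjusted p = 0.025) and Klhl41 at -0.61 (adjusted p = 0.021).

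**Figure D4:**
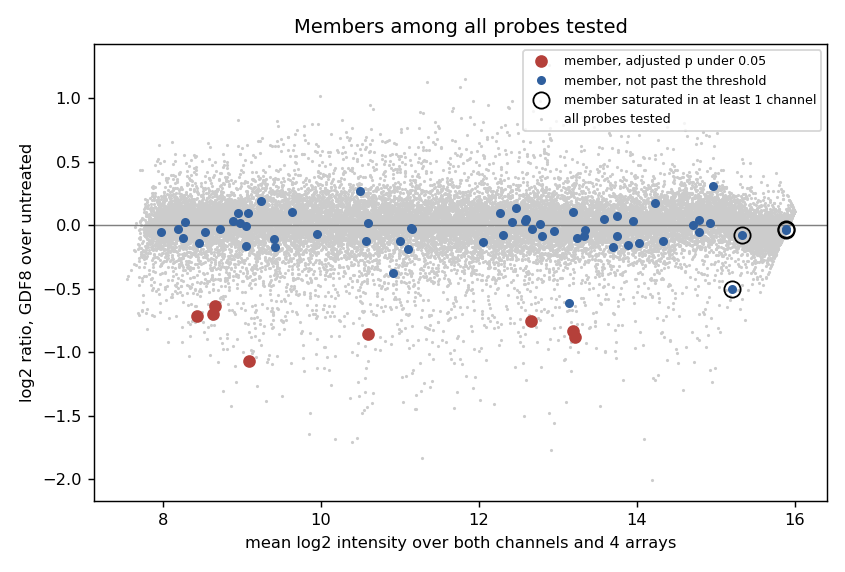
Log2 ratio of GDF8-treated over untreated cells (y axis) against mean log2 intensity over both channels and the 4 arrays (x axis) for all 26579 probes tested (grey) and the 68 member probes. The 8 fallen members (red) occur at both low and high intensity, and the 4 saturated members (ringed) lie at the bright end.

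None of the other Kelch-like and Kbtbd genes passed. Klhl9, Klhl21 and Klhl22 act in mitosis in human cells. Klhl22 and Klhl21 gave 0.18 and 0.03, and the 2 Klhl9 probes gave 0.14 and -0.12. Klhl12, which regulates the size of COPII vesicle coats, gave -0.08 and 0.02. Klhl20, linked to DAPK1 and ULK1 turnover, gave -0.09 and -0.14, and Klhl25, which acts on the translation repressor 4E-BP1 in human cells, gave 0.05 and 0.11. Each of these adaptors of known substrate lay within 0.2 of 0.

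The remaining members not called were Kbtbd2, Kbtbd3, Kbtbd4, Kbtbd7, Kbtbd8, Kbtbd11, Klhl1, Klhl2, Klhl5, Klhl7, Klhl8, Klhl10, Klhl11, Klhl15, Klhl17, Klhl18, Klhl23, Klhl24, Klhl26, Klhl28 and Klhl32. Kbtbd11 had the highest ratio of all members at 1 probe (0.31 ± 0.10, adjusted p = 0.24) and -0.03 at another. On the first it gave 0.14, 0.58, 0.72 and -0.20, and the array of replicate 4 thus ran against the other 3. Klhl3, an adaptor for WNK kinases in the human kidney, was not tested, nor were Klhl4, Klhl6, Klhl14 and Klhl29. Klhl6 is known from B cells.

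A few members varied more between arrays than between groups. A Klhl15 probe gave 0.35, -1.09, 0.31 and 1.51, while a second Klhl15 probe gave 0.04, -0.20, -0.22 and -0.11. A Kbtbd3 probe gave 0.24, -0.12, -0.30 and -1.33, with a mean of -0.38 ± 0.23 (adjusted p = 0.65). It passed without replicate 1 (-0.77, adjusted p = 0.026), while without replicate 4 it gave 0.02 (adjusted p = 0.99). The standard errors of the tested members ran from 0.088 to 0.26.

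Many members differed between the dye orientations. In 35 of the 68 tested probes the mean ratio had opposite signs in the 2 dye orientations, and in 7 the fitted dye effect was over 0.3. The shares over all tested probes are not given, so these counts are not read as particular to the members. All 8 called probes were below 0 in both orientations. Across all tested probes the correlation of array ratios was 0.44 and 0.45 between arrays of the same orientation and between -0.18 and 0.18 between arrays of opposite orientation. Over the tested members it was between 0.14 and 0.55, which describes probes on shared arrays and carries no test. Replicate 3 had the least negative ratio in 7 of the 8 called member probes, and in 69.9% of the 519 probes that fell on the whole array.

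Family members that the array lists under older names outside the rule were looked up too. The 10 probes belong to Klhl35, Klhl36, Klhl38, Klhl42, Kbtbd11, Kbtbd12 and Kbtbd13. Those of Kbtbd11 and Klhl36 and some of Klhl42 were tested, and none of these passed. The probes of Klhl35, Klhl38, Kbtbd12 and Kbtbd13 and a further Klhl42 probe were too dim to test. Klhl38, a muscle gene, gave 0.05, -0.15, -0.02 and -0.12 and was well above background on 3 GDF8 and 2 untreated arrays, so it was not tested. Klhl33 had no probe by any name used here.

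No probe of the ligase core passed. Of 32 genes of the cullin-RING machinery (cullins, RING proteins, elongins, NEDD8 enzymes, the COP9 signalosome and the CAND exchange factors), 65 probes were tested and 0 called in limma in either direction. Their median was 0.01, and 31 of the probes were saturated in at least 1 channel. The smallest p was that of Cand2, the CAND protein of muscle, with -0.57, -0.34, -0.20 and -0.58 (mean -0.42 ± 0.09, adjusted p = 0.068). A second Cand2 probe gave -0.15. Cul9 followed at -0.29, and the probes of Cops7a and Dcun1d2 with the smallest p gave 0.17 and 0.14.

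The 5 BTB-kelch adaptors named otherwise (among them Keap1, Enc1, Ipp and Ivns1abp) had 10 probes tested and none past the threshold. Ivns1abp, an actin-linked kelch protein, gave 0.42 ± 0.12 and 0.43 ± 0.14 at its dimmer probes (adjusted p = 0.17 and 0.25) and 0.11 at a probe with saturated channels. Keap1, the adaptor for Nrf2, gave 0.12. Ipp gave between -0.11 and 0.04.

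Among 18 other SOCS-box genes, 1 of 26 tested probes rose and 1 fell. Spsb4, a SPRY-domain adaptor, was 0.39, 0.58, 0.53 and 0.62 (mean 0.53 ± 0.09, adjusted p = 0.035). Rab40b, a Rab GTPase with a SOCS box, was -0.63, -0.79, -0.52 and -1.10 (mean -0.76 ± 0.11, adjusted p = 0.019). Its second probe gave -0.63 ± 0.13 (adjusted p = 0.057). These were the pair of SOCS-box genes outside the ASB family that passed. Spsb4 did not pass without replicate 2, 3 or 4, nor did Rab40b without replicate 2 or 4.

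**Figure D5:**
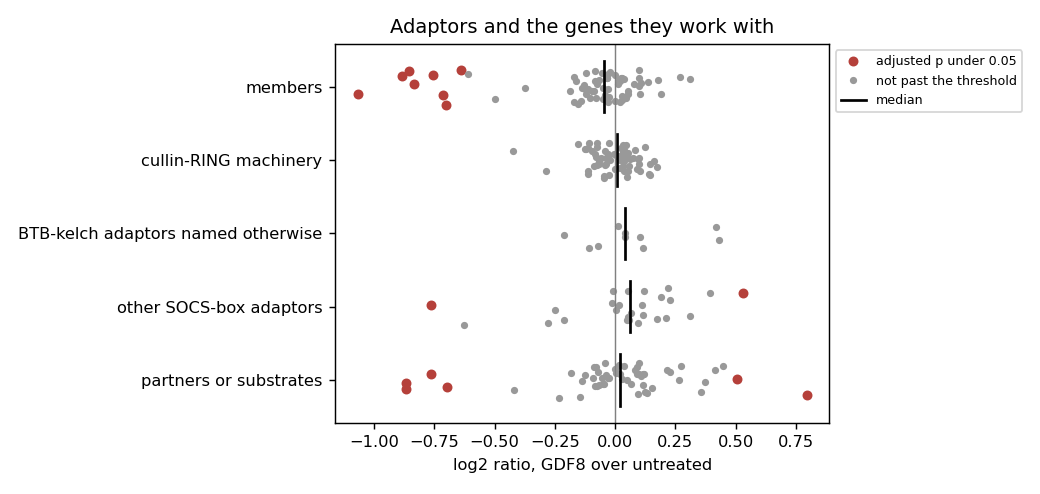
Log2 ratio of GDF8-treated over untreated cells (x axis) for every tested probe of the members and of 4 lists of genes they work with, 1 row a list; red marks an adjusted p under 0.05, the black bar is the median and the vertical scatter has no meaning. No probe of the cullin-RING machinery or of the BTB-kelch adaptors named otherwise is red, and the red probes of the partners lie on both sides of 0.

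Known partners and substrates of members moved in both directions. Of 55 tested probes of 23 genes, 4 fell (Neb and Nrap) and 2 rose, among them the Aurkb probe. Nebulin, the thin-filament ruler that Klhl40 and Klhl41 act on, fell at 3 of its 5 tested probes, with -0.76 ± 0.12, -0.87 ± 0.12 and -0.87 ± 0.12 (adjusted p = 0.023, 0.016 and 0.015). Its other tested probes did not pass: one gave -0.42 ± 0.11 (adjusted p = 0.12) with 2 channels of each group saturated, and the other was at the scanner ceiling in untreated cells on all 4 arrays. Nrap, a nebulin-related scaffold of growing myofibrils, gave -1.19, -0.21, -0.38 and -1.01 (mean -0.70 ± 0.09, adjusted p = 0.015). Without replicate 2 neither gene passed, and without replicate 3 Nrap did not. The Nrap ratio was deepest on replicates 1 and 4, with GDF8 in Cy3. In limma Nrap also lost its call with no dye term (adjusted p = 0.12). The same held with single-channel values without the array as a block (adjusted p = 0.072).

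Aurkb, the Aurora B kinase that Klhl9 and Klhl13 act on in human cells, gave 0.88, 0.94, 0.51 and 0.86 (mean 0.80 ± 0.10, 1.74-fold higher, adjusted p = 0.014), and did not pass without replicate 2. Klhl13 was lower on the same arrays. Protein levels and ubiquitin marks were not measured here.

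Cell identity and array quality bear on these values. All 8 myoblast and myotube marker genes were well above background in both groups on every array, and 8 of their 10 probes were saturated at least once. Of those markers Ckm, the muscle creatine kinase, fell (-0.93 ± 0.17, adjusted p = 0.044), and did not pass without replicate 1, 2 or 4. The adipocyte genes Adipoq and Plin1 and the smooth muscle gene Myh11 were not well above background on all 4 arrays of either group. Of the listed genes, 3 of 5 adipocyte, 3 of 4 osteoblast and 3 of 4 smooth muscle genes were bright enough to test. Of the tested smooth muscle probes, 3 were saturated in at least 1 channel. In limma, 0 adipocyte and 0 osteoblast probes passed. Lmod1 of the smooth muscle list fell (-0.48, adjusted p = 0.041), a call lost in each fit that left out an array. The part of cell composition in the adaptor results was not tested. Over the arrays, 63.3% to 78.8% of spots were well above background in the GDF8 channel and 67.1% to 77.5% in the untreated one, while 0.745% to 12.1% were saturated in the GDF8 channel and 4.11% to 11.1% in the untreated one.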

How the data were processed

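Per the file headers, the deposited scanner files hold the spot intensity of both channels and a log10 red-over-green ratio, written by Feature Extraction 9.1.1.1 (series design text). The table of values deposited by the authors is in log2 units; set against the scanner's red over green it correlated at -0.66, 0.85, 0.89 and -0.99 for replicates 1 to 4, so it runs GDF8 over untreated. Its columns are not centred, with medians of 0.14, -0.09, -0.11 and 0.09. Per the series design text, the authors then used GeneSpring GX 12, flag filters, an unpaired test and a 1.6-fold threshold.

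Here, mean signals were background-corrected by normexp (offset 50) and normalised within arrays by loess in limma 3.58.1 under R 4.3.3, with control spots at weight 0. Spots flagged as outliers were dropped and spots of 1 probe averaged; 646 of 41174 probes lacked a value on some array and were not fitted. Each probe was fitted with a GDF8 term and a dye term (2 residual and 5.05 prior degrees of freedom); the fit was tested on simulated data. Probe names came from RefSeq (GRCm38.p6) by accession for 72 member probes and by symbol for 26. Promoters are RefSeq's on the same assembly; no build is stated for the array in the sources used here.

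The members and lists were chosen with earlier results of these data known. Every member is named once; values by array are given for member probes past the threshold and for the muscle-linked genes Klhl30, Klhl31, Klhl33, Klhl38, Klhl40, Klhl41, Asb2, Asb4, Asb5, Asb8, Asb10, Asb11, Asb12, Asb14, Asb15 and Asb18, except that Klhl33 had no probe and that no ratio is given for the saturated Asb5 and Klhl30. From other lists, genes past the threshold are named, otherwise up to 4 with the smallest p; some values of single genes are left out of the text. Array values of Klhl15, Kbtbd3 and Kbtbd11 were added after their values were seen. Alternatives covered background correction, scaling, dim and saturated probes, dye, pairing, the methods' t-test, the fold threshold, the authors' table and each array left out. The number of arrays limits precision.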

Additional observations from a re-analysis of the deposited data

Results flagged for a closer look

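Among 69 results searched for an array standing apart (the 68 tested member probes and their median), 3 did so, and chance gives about 1 in 20. Klhl9 did at both probes, on different arrays: replicate 3 gave 0.98 on one probe, against -0.16, -0.19 and -0.08 on the other arrays, and replicate 4 gave -0.28 on the second, against -0.05, -0.09 and -0.05. The dimmer Klhl31 probe gave -0.33 on replicate 3, against -0.98, -1.08 and -1.03 on the other arrays.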

How the results depend on the processing

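Of 19 alternatives, all kept 0 member probes called higher, and the median of the member probes stayed between -0.07 and -0.03 in those that recompute it. The member probes called lower, 8 with all arrays, numbered between 6 and 10 except with the methods' t-test after Benjamini-Hochberg adjustment (2 probes, Asb11 and Klhl13) and with an array left out, where they ranged from 1 to 9 (1 without replicate 2 and 3 without replicate 4). A fit without 1 array has a single array in 1 dye orientation. Median centring gave 10, adding Klhl40 and Klhl41. No called member changed direction under any alternative. Many alternatives could not have changed it. Scaling of intensities between arrays left the ratios as they were. The filters on probes, the fit with no dye term, the single-channel values, the t-test and the fold threshold reuse the same mean ratio. The fold threshold on the adjusted p could not add a call either, so the lack of higher calls there was fixed in advance. Of the 8 called probes, Asb16 lost its call under 9 alternatives and the brighter Klhl31 probe under 7; Asb14 and Klhl13 lost theirs under 1 each. Over all probes, the 205 higher and 519 lower became 88 and 347 with no dye term, 72 and 319 with single-channel values without the array as a block, 25 and 76 with the methods' t-test after Benjamini-Hochberg adjustment, 30 and 185 without replicate 2, and 60 and 211 without replicate 4. With Agilent's processed signals 111 were higher, with the 1.6-fold threshold 84, and with the methods' unadjusted t-test at 1.6-fold 87. Probes of the other lists were put through the same alternatives, a choice made after seeing the data: the calls of Lmod1 and Spsb4 were lost under 12 and 11 of them. The main fit was itself paired by replicate, because each ratio pairs both RNAs on 1 array. Signal limits 30 member probes that were too dim to test and 4 that were saturated.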
